A study of Mus musculus with 6 samples.

Results

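The Cyp2 and Cyp3 cytochrome P450 genes other than the Cyp2b genes were compared between the liver of mice labelled Sec15 KO, for knockout, and that of WT, or wild-type, mice. They were picked by gene name, with earlier results of these data already known. A probe counted when its transcript accession belongs to a RefSeq mouse gene whose symbol begins with Cyp2 or Cyp3 and a subfamily letter. Every Cyp2b symbol was left out. Of 76 RefSeq symbols that match, 55 have a transcript accession and 49 have at least 1 probe on the array, 47 of them protein-coding genes and 2 pseudogenes (Cyp2d13 and Cyp2d37-ps). These 49 genes stand among 32451 genes on the array and are read by 65 of its 39429 probes. To be tested, a probe had to be flagged as well above background on 3 or more arrays, and 47 of the 49 genes passed, with 61 probes. A gene with more than 1 passing probe is given by its brightest one. Cyp2a5, Cyp2c40, Cyp2c53-ps, Cyp2c69, Cyp2j12 and Cyp3a41a have an accession but no matching probe and were not analysed here.

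Cytochrome P450 enzymes hold a haem group and insert an oxygen atom into drugs, steroids, fatty acids and bile acids. They sit in the membrane of the endoplasmic reticulum and take electrons from NADPH through P450 reductase (Por), with cytochrome b5 as a further donor. In liver the Cyp2 and Cyp3 families carry most drug oxidation. Their genes lie in tandem clusters of close copies, many are induced by foreign compounds through the receptors CAR (Nr1i3) and PXR (Nr1i2), and in mice several differ between the sexes under the control of growth hormone.

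Liver total RNA of untreated male mice, 6 weeks old in both groups, was dyed with Cy3 and read on 6 one-colour Agilent arrays, 3 for Sec15 KO and 3 for WT. Sec15 is a subunit of the exocyst, which tethers secretory vesicles at the plasma membrane. The labels give neither the Sec15 gene that was deleted (mice have Exoc6 and Exoc6b) nor the deleted part, the promoter behind any Cre, or the strain. They also do not say that each sample is its own animal, so the p-values reflect the spread among these samples only, and part of it may be technical. In the deposited names, WT replicates 1 and 2 carry the same number and could stem from 1 animal.

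Signals are given as log2 processed signal minus the 75th percentile of the same array, called log2 signal below, so a level of 0 is the array's 75th percentile. Between 64.75% and 65.4% of probes on KO arrays and between 67.22% and 70.26% on WT arrays were well above background, and no spot was saturated. The number of arrays limits the precision. By scan time, slide 1 was taken to hold KO replicate 2 and all WT arrays, and slide 2 the remaining KO arrays. With slide as a blocking term in the fit, a difference is therefore KO replicate 2 minus the mean of the WT arrays, and slide and scan cannot be told apart. The Exoc6 probe was well above background on 0 KO arrays and 1 WT array. The Exoc6b probe that passed read 0.14, -0.03 and -0.06 in KO and 0.31, 0.78 and 0.54 in WT, a fall by 0.53 on the log2 scale (limma adjusted p = 0.0441), and whether it lies in a deleted part is not given. All 9 hepatocyte markers on the array were well above background on all 6 arrays, albumin (Alb) with a mean log2 signal of 9.77 in KO and 9.62 in WT.

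Over the whole table of 22814 genes, limma called 4005 genes higher in KO (17.6%) and 2777 lower (12.2%), or 29.7% in either direction, at an adjusted p under 0.05. Among the 47 P450 genes, 11 were called higher and 6 lower, which are 23.4% and 12.8% of them. All 3 KO values lay above all 3 WT values for 15 P450 genes, against 30.7% of all genes, and below them for 9, against 20.1%. Together 24 of 47 P450 genes had groups without overlap, against 50.8% of all genes. The 9 and the 24 include Cyp2ab1, which was well above background on 0 KO arrays and passed the filter only through the WT arrays. The median log2 fold change, KO minus WT throughout, was 0.11 over the P450 genes and 0.07 over all genes. As a whole the P450 genes were therefore near the background of a comparison in which many genes differed, and they are described by subfamily. In bulk liver, fewer cells of a type and less RNA per cell cannot be told apart.

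The split of the calls depended on the scaling of the arrays and on the slide. Cyclic loess normalisation gave 4 P450 genes higher (10.8% of all genes) and 8 lower (12.5%). Quantile normalisation gave 6 higher (13.8% of all genes) and 7 lower (11.1%), and normexp background correction with it 7 higher (15% of all genes) and 8 lower (11.6%). Centring on the array median gave 13 higher (22.5% of all genes) and 2 lower (9.84%), and moved the median of all genes by 0.12 on the log2 scale. With slide as a blocking term, 1 P450 gene was higher (Cyp2c67, against 5.19% of all genes) and 3 were lower (Cyp2c65, Cyp2d40 and Cyp2r1, against 4.68%), that of Cyp2c65 resting on a KO array on which it was not well above background. Single arrays also decided calls. When WT replicate 3 was left out, limma called 0 of the 47 (11 higher and 6 lower at an unadjusted p under 0.05). Of all 22814 genes it then called 332 higher and 268 lower. Dropping KO replicate 3 left 1 P450 gene higher, beside 460 higher and 480 lower of all genes. Removing KO replicate 1 gave 2 higher and 1 lower (1492 and 1184 of all genes). Once WT replicate 2 was taken out, 7 were higher (1197 higher and 1070 lower of all genes). The loss of calls was therefore not limited to the P450 genes. Bright probes as a class read higher in KO: in the brightest decile of genes, which holds 26 of the 47 P450 genes, the median log2 fold change was 0.29 and 36.68% were called higher. Its part in the P450 results was not tested, but after cyclic loess that decile had a median of 0.01.

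**Figure D1:**
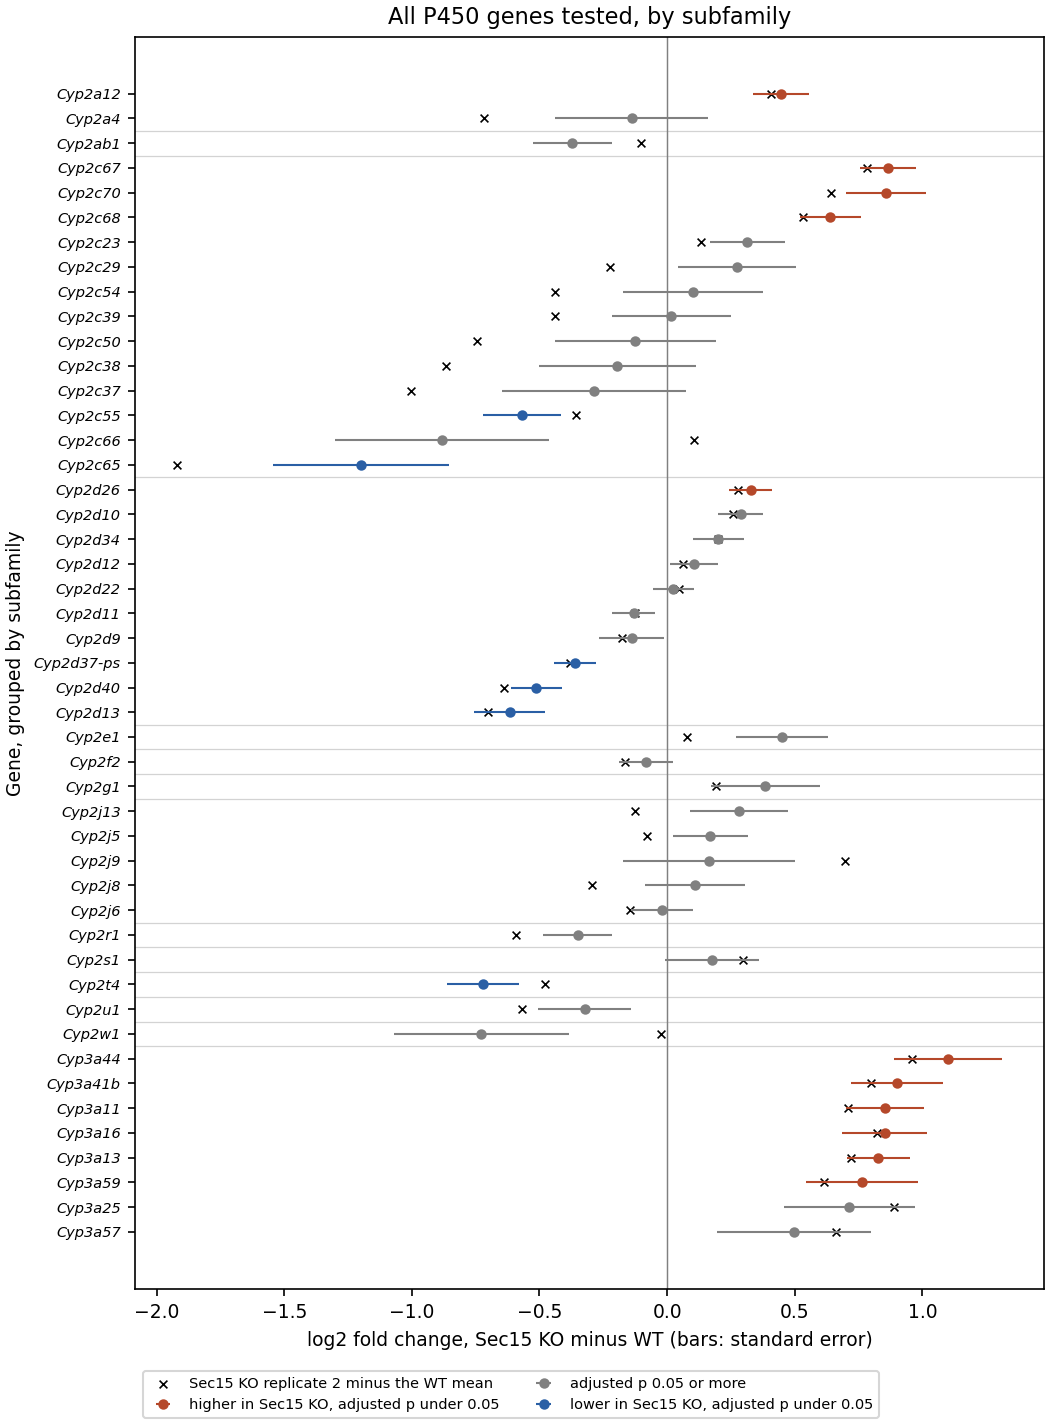
Log2 fold change (Sec15 KO minus WT, horizontal axis) of the 47 tested genes, grouped by subfamily from top to bottom, with standard errors as bars. Red marks genes called higher in KO, blue genes called lower and grey the rest, and crosses show KO replicate 2 minus the WT mean. Cyp2ab1 is drawn although it passed the filter only through the WT arrays, so its point is not read as a result. The 8 Cyp3a genes lie between 0.50 and 1.10, while the 13 Cyp2c genes spread from -1.20 to 0.87.

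The Cyp3a genes were higher in KO liver as a group. They encode the main steroid and drug hydroxylases of the Cyp3 family, and 6 of the 8 tested were called higher (Cyp3a11, Cyp3a13, Cyp3a16, Cyp3a41b, Cyp3a44 and Cyp3a59), each between 1.70-fold and 2.15-fold. The median log2 fold change of the 8 was 0.84, with a lowest value of 0.50 and a highest of 1.10, against 0.07 for all genes. All KO values lay above all WT values for 7 of the 8. Among all genes 17.6% were called higher and 30.7% had all KO values above all WT values, and 36.68% of the brightest decile were called higher.

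Cyp3a11, the main drug-inducible Cyp3a enzyme of mouse liver and a target of PXR, had a log2 signal of 8.96, 8.81 and 9.09 in KO and 8.30, 7.84 and 8.15 in WT. The lowest KO array stood above the highest WT array. The difference was 0.85 (SE 0.15, 1.81-fold higher, adjusted p = 0.0151), and its second probe gave 1.01 (SE 0.26, adjusted p = 0.0362). Cyp3a44, known as female-biased in mouse liver, read 0.82, 0.57 and 0.76 in KO and 0.01, -0.78 and -0.38 in WT. Here too the groups were apart, with WT replicate 2 farthest from KO, and the rise was 1.10 (SE 0.21, 2.15-fold, adjusted p = 0.0176).

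Cyp3a16, which is expressed in fetal liver and is female-biased in adult mice, read 6.50, 6.46 and 6.51 in KO and 5.92, 5.31 and 5.68 in WT. The KO arrays agreed closely (SD 0.03) while the WT arrays spread (SD 0.31). The difference was 0.85 (SE 0.17, 1.81-fold higher, adjusted p = 0.018). Cyp3a41b, another female-biased gene, read 5.65, 5.47 and 5.60 in KO and 5.02, 4.37 and 4.62 in WT, a rise of 0.90 (SE 0.18, 1.87-fold, adjusted p = 0.0189). Its near-identical copy Cyp3a41a has no matching probe, so signal from both copies cannot be told apart. The KO values of Cyp3a41b all exceeded the WT values.

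Cyp3a13, which is also expressed in the intestine, read 3.48, 3.28 and 3.39 in KO and 2.74, 2.40 and 2.53 in WT. The rise was 0.83 (SE 0.12, 1.78-fold, adjusted p = 0.0107), and its second probe gave 0.44 with no call (adjusted p = 0.0724). Cyp3a59 read 6.23, 5.99 and 6.19 in KO and 5.76, 4.94 and 5.42 in WT, a difference of 0.76 (SE 0.22, 1.70-fold higher, adjusted p = 0.046), with 0.49 on its second probe (adjusted p = 0.0914). In each of these genes all KO arrays stood above all WT arrays, and the second probe had the same sign without a call. Of the genes not called, Cyp3a25 read 6.98, 7.43 and 7.35 in KO and 6.96, 6.05 and 6.60 in WT (difference 0.71, SE 0.26, adjusted p = 0.0806). Cyp3a57 read 5.82, 6.13 and 5.95 in KO and 6.02, 4.84 and 5.55 in WT (difference 0.50, SE 0.30, adjusted p = 0.239). The groups of Cyp3a57 overlapped through WT replicate 1, which exceeded KO replicates 1 and 3.

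The SD was larger among WT arrays than among KO arrays for 8 of 8 Cyp3a genes. WT replicate 2 was the lowest WT array for 8 of 8 Cyp3a genes, against 45.83% of all genes. The median difference between WT replicates 1 and 2 was 0.72 over the Cyp3a genes and 0.05 over all genes. The KO arrays lay close together, at a median of 0.86, 0.76 and 0.85 above the gene's WT mean for replicates 1, 2 and 3. With slide as a blocking term, all 8 fold changes stayed positive, with a median of 0.76 and values between 0.62 and 0.96. By limma 0 of them were then called (5 at an unadjusted p under 0.05), and 5.19% of all genes were called higher. All 8 were also positive under each of the 17 alternative settings. The number called moved more: 2 of 8 after cyclic loess, 3 after quantile normalisation, 4 without WT replicate 2, 1 without KO replicate 1, and 0 without WT replicate 3 or without KO replicate 3 (6 at an unadjusted p under 0.05 in both). Of all 22814 genes, 2465 were called higher after cyclic loess and 3140 after quantile normalisation. That number was 1197 without WT replicate 2, 1492 without KO replicate 1, 332 without WT replicate 3 and 460 without KO replicate 3. Probes of such close copies may share signal, so the 8 genes are not 8 independent measurements.

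**Figure D2:**
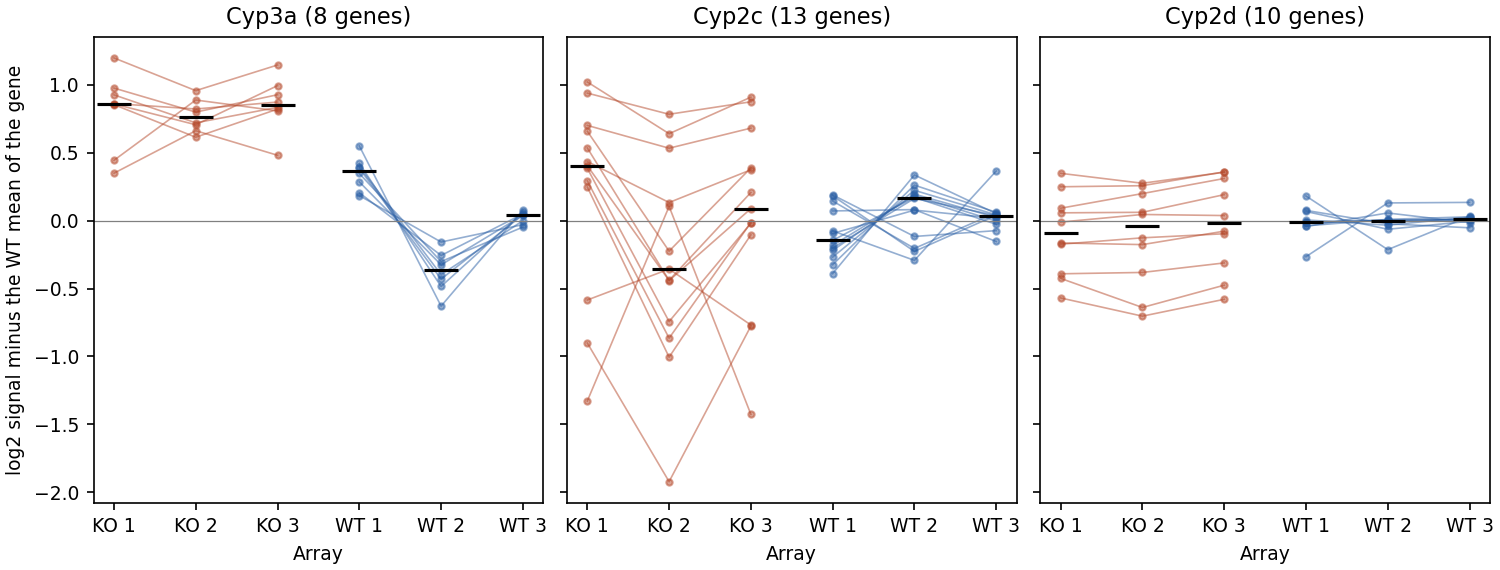
Log2 signal of each gene minus its WT mean (vertical axis) on the 3 Sec15 KO arrays and the 3 WT arrays (horizontal axis), for the 8 Cyp3a, 13 Cyp2c and 10 Cyp2d genes. Points of 1 gene are joined within a group and black bars are medians over the genes of a panel. The Cyp3a medians are 0.86, 0.76 and 0.85 on the KO arrays, whereas the Cyp2c medians are 0.40, -0.36 and 0.09, with KO replicate 2 lowest.

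The sequences before the starts of these genes were compared because the Cyp3a genes moved together. RefSeq promoter windows (GRCm38.p6) were found for 38 of the 47 tested genes, 250 bases before the start being searched on both strands. The letters CAAAGT, the core of elements bound by the liver factor HNF4, were in 21 of the 38 windows and in 12.5% of 27025 windows of all genes. They were in 7 of 8 Cyp3a windows (the exception was Cyp3a13), in 9 of 11 windows of genes called higher and in 1 of 4 of genes called lower. The letters AGGTCA, a half-site of nuclear receptors such as PXR and CAR, were in 11 of 38 windows, in 5 of 8 Cyp3a windows and in 13.8% of all windows. Neither motif overlapped the other in a tested gene. TATAAA, the TATA box, was in 20 of 38 windows and in 13% of all, and TTCNNNGAA, the element bound by STAT factors, was in 0 of 38 and in 7.18% of all. Such matches describe letters in these windows and do not show binding.
The windows below show 4 Cyp3a genes that were called higher, and a pair of Cyp2c genes of which Cyp2c67 was called and Cyp2c37 was not. They lie at chr5:145879855-145880104 (minus strand) for Cyp3a11, chr5:145469724-145469973 (minus strand) for Cyp3a16, chr5:145805875-145806124 (minus strand) for Cyp3a44, chr5:137921620-137921869 (minus strand) for Cyp3a13, chr19:39649043-39649292 (minus strand) for Cyp2c67 and chr19:39992174-39992423 (plus strand) for Cyp2c37. Each reads 5′ to 3′ along the gene's strand and ends at the base before the start, and capitals mark CAAAGT and AGGTCA.
Cyp3a11: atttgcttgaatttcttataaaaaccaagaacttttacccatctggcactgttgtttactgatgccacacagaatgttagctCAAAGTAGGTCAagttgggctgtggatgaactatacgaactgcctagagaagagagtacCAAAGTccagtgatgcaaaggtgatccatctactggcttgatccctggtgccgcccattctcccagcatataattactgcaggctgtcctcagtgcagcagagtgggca
Cyp3a16: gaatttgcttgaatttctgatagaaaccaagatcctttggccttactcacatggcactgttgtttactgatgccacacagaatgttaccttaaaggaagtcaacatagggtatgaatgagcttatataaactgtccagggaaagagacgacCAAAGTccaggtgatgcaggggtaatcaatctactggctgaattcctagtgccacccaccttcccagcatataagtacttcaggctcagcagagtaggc
Cyp3a44: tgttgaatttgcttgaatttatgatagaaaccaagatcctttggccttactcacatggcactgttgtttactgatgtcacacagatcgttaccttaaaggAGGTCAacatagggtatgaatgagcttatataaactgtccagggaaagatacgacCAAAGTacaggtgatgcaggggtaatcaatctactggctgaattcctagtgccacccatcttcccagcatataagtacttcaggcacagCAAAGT
Cyp3a13: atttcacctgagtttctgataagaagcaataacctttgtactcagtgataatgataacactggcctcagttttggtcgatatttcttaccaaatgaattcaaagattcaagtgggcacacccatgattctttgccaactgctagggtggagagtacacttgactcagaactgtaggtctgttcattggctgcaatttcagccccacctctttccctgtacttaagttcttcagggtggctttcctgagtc
Cyp2c67: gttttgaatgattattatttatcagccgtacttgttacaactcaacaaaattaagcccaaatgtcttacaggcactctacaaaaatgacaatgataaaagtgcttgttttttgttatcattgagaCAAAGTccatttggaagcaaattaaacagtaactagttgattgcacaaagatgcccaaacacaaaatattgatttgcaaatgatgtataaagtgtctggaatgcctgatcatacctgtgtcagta
Cyp2c37: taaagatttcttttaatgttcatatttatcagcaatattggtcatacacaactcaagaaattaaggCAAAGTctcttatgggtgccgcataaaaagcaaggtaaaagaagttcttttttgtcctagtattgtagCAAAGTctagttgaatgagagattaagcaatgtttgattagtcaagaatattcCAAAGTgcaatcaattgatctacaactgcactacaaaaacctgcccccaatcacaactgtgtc

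By sequence, the Cyp3a windows formed close sets. In global alignments, counted as identical bases out of 250, Cyp3a16, Cyp3a41b and Cyp3a44 shared between 92.8% and 94.8%, and Cyp3a25, Cyp3a57 and Cyp3a59 between 89.6% and 95.2%. Cyp3a11 was 79.6% identical to Cyp3a16, and Cyp3a13 no more than 61.6% identical to any of them. The log2 fold changes within the first set were 0.85, 0.90 and 1.10 and within the second 0.71, 0.50 and 0.76. Cyp3a13, whose window holds neither marked motif, rose by 0.83, within the range of the other Cyp3a genes. Cyp2c37 and Cyp2c67, at 64.4% identity, both hold CAAAGT and differed in their values.

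The Cyp2c genes, whose enzymes oxidise drugs and form epoxides from arachidonic acid, did not move as a group. Of 13 tested, 3 were called higher (Cyp2c67, Cyp2c68 and Cyp2c70) and 2 lower (Cyp2c55 and Cyp2c65), with a median log2 fold change of 0.02. These counts are near the shares of all genes, of which 17.6% were called higher and 12.2% lower. Cyp2c67 read 6.28, 6.13 and 6.22 in KO and 5.41, 5.42 and 5.19 in WT. It rose by 0.87 (SE 0.11, 1.82-fold, adjusted p = 0.00782), the smallest adjusted p among the P450 genes, and kept its call with slide as a blocking term (0.78, adjusted p = 0.0394). Its call held in 16 of 17 alternatives and ended without WT replicate 3 (adjusted p = 0.0505). Its second probe gave 0.49 with no call (adjusted p = 0.0608).

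Cyp2c68, the next tested gene after Cyp2c67, read 5.63, 5.46 and 5.61 in KO and 4.78, 5.10 and 4.90 in WT. It rose by 0.64 (SE 0.12, 1.56-fold, adjusted p = 0.0164). Cyp2c70, the enzyme that makes muricholic acids in mouse bile, read 5.94, 5.56 and 5.83 in KO and 4.70, 5.11 and 4.94 in WT. It rose by 0.86 (SE 0.16, 1.81-fold, adjusted p = 0.0159). In both, each KO array exceeded each WT array, with KO replicate 2 the lowest of the KO arrays. With slide as a blocking term the differences were 0.53 and 0.64 and were not called (adjusted p = 0.0819 and 0.0839).

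The tested genes at one end of the cluster read lower in KO. Cyp2c65, expressed mainly in the gut and induced through CAR and PXR, read -3.31, -4.33 and -3.18 in KO and -2.48, -2.70 and -2.04 in WT, and was well above background on 2 KO arrays and 3 WT arrays. It fell by 1.20 (SE 0.35, 2.30-fold lower, adjusted p = 0.0471), with KO replicate 2 far below the other arrays. That reading was not well above background (the lowest such signal on the array was -3.66), so the value for KO replicate 2 is no more than a bound and the size of the fall is uncertain. Cyp2c55, which hydroxylates arachidonic acid, read -2.90, -2.68 and -3.09 in KO and -2.18, -2.52 and -2.26 in WT, a fall by 0.57 (SE 0.15, 1.48-fold lower, adjusted p = 0.0394). Groups did not overlap in either gene. With normexp and quantile normalisation, Cyp2c65 fell by 0.40 (limma adjusted p = 0.0368). Cyp2c55 then fell by 0.25 without a call (limma adjusted p = 0.0575). Cyp2c66 read -2.29, -0.86 and -2.39 in KO and -0.77, -1.08 and -1.04 in WT. Its KO replicate 2 stood among the WT arrays, and the difference of -0.88 (SE 0.42, adjusted p = 0.152) was 0.11 with slide as a blocking term. Of 3 intestine markers tested limma called 0 (0 also at an unadjusted p under 0.05). The summed linear signal of all 5 on the array, tested or not, was between 12.4 and 17.8 in KO and between 12.9 and 14.0 in WT. Most of that sum came from Fabp2, with log2 signals of 4.12, 3.56 and 3.95 in KO and 3.75, 3.62 and 3.71 in WT. The part of the intestine markers in these falls was not tested.

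Along chromosome 19 the tested genes run Cyp2c55, Cyp2c65, Cyp2c66, Cyp2c29, Cyp2c39, Cyp2c38, Cyp2c67, Cyp2c68, Cyp2c37, Cyp2c54, Cyp2c50, Cyp2c70 and Cyp2c23. The first 3 had log2 fold changes of -0.57, -1.20 and -0.88. Those of the next 3 were 0.28, 0.02 and -0.20, Cyp2c67 and Cyp2c68 followed with 0.87 and 0.64, and Cyp2c37, Cyp2c54 and Cyp2c50 had -0.29, 0.10 and -0.12. Cyp2c70 stood at 0.86 and Cyp2c23 at 0.32 (adjusted p = 0.148). Genes called lower and genes called higher thus lay in different stretches of the cluster, with genes of no call between them, and the last gene was not called. The genes called lower were also the dimmest of the tested Cyp2c genes, so place and brightness cannot be told apart.

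In the remaining Cyp2c genes the KO arrays disagreed with each other. Cyp2c37, a target of CAR, read 5.26, 4.01 and 4.91 in KO and 4.62, 5.35 and 5.06 in WT (difference -0.29, SE 0.36, adjusted p = 0.556). Cyp2c50 read 6.54, 5.41 and 6.14 in KO and 5.83, 6.42 and 6.22 in WT (difference -0.12, adjusted p = 0.775). Cyp2c54 read 7.20, 6.23 and 6.87 in KO and 6.40, 6.89 and 6.71 in WT (difference 0.10, adjusted p = 0.789). In all of these KO replicate 1 was high, KO replicate 2 was the lowest of the 6 arrays and the groups overlapped. Cyp2c29, also a target of CAR, read 4.77, 3.89 and 4.50 in KO and 4.02, 4.19 and 4.13 in WT (difference 0.28, adjusted p = 0.385), and Cyp2c39 read 4.84, 4.00 and 4.53 in KO and 4.25, 4.62 and 4.43 in WT (difference 0.02, adjusted p = 0.959). KO replicate 2 was the lowest KO array for 11 of 13 Cyp2c genes, or 84.62%, against 45.32% of all genes and 60.39% of the brightest decile. KO replicate 1 minus KO replicate 2 had a median of 0.85 over the Cyp2c genes and -0.01 over all genes. With slide as a blocking term, 5 of the 13 were positive, the median was -0.36, and Cyp2c29, Cyp2c39 and Cyp2c54 turned to -0.22, -0.44 and -0.44 (adjusted p between 0.194 and 0.349). KO replicate 2 stood apart from the other KO arrays over all genes tested as well. The SD of its difference was 0.68 from KO replicate 1 and 0.62 from KO replicate 3, which differed from each other by 0.34. From the WT arrays that SD was between 0.60 (WT replicate 1) and 0.77 (WT replicate 2). The slide and KO replicate 2 cannot be told apart.

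**Figure D3:**
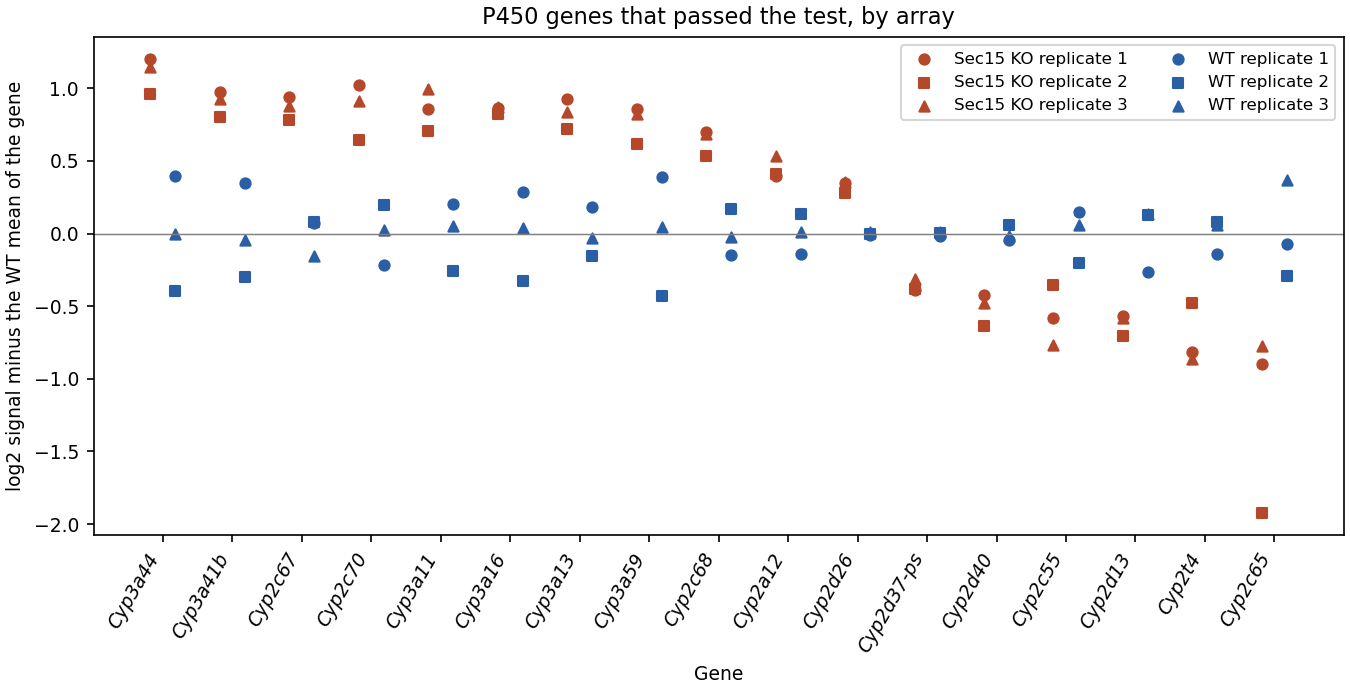
Log2 signal minus the gene's WT mean (vertical axis) for the 17 called P450 genes (horizontal axis, by fold change), with Sec15 KO arrays in red left of WT arrays in blue and the marker giving the replicate. The 11 genes on the left have all KO points above all WT points, the 6 on the right have them below, and Cyp2c65 holds the most distant single array, KO replicate 2.

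The 2 probes of Cyp2c38 gave opposite readings. The brighter probe, A_55_P2116272, read 3.95, 2.79 and 3.65 in KO and 3.46, 3.82 and 3.70 in WT (difference -0.20, SE 0.31, adjusted p = 0.641), with overlapping groups. The other, A_52_P468564, read 2.62, 2.05 and 2.46 in KO and -0.88, -2.50 and -1.41 in WT, and each KO array stood far above each WT array. This probe differed by 3.97 (SE 0.42, 15.7-fold higher, adjusted p = 0.00647 over all probes) and by 3.65 with slide as a blocking term (adjusted p = 0.037). Their mean gave 1.89 (adjusted p = 0.0108). Which transcript each probe binds beyond the accession it was designed on is not given, so the level of Cyp2c38 itself is uncertain. Of 13 genes with more than 1 passing probe, 10 had probes that differed by less than 0.5 on the log2 scale. Signs were opposite in 6 (Cyp2c37, Cyp2c38, Cyp2d34, Cyp2j13, Cyp2j6 and Cyp2r1). Apart from Cyp2c38, none of these had a called probe, with values between -0.35 (Cyp2r1) and 0.28 (Cyp2j13) on every probe. Over single probes, 13 of 61 P450 probes were called higher and 6 lower, against 4624 and 3129 of 27031.

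**Figure D4:**
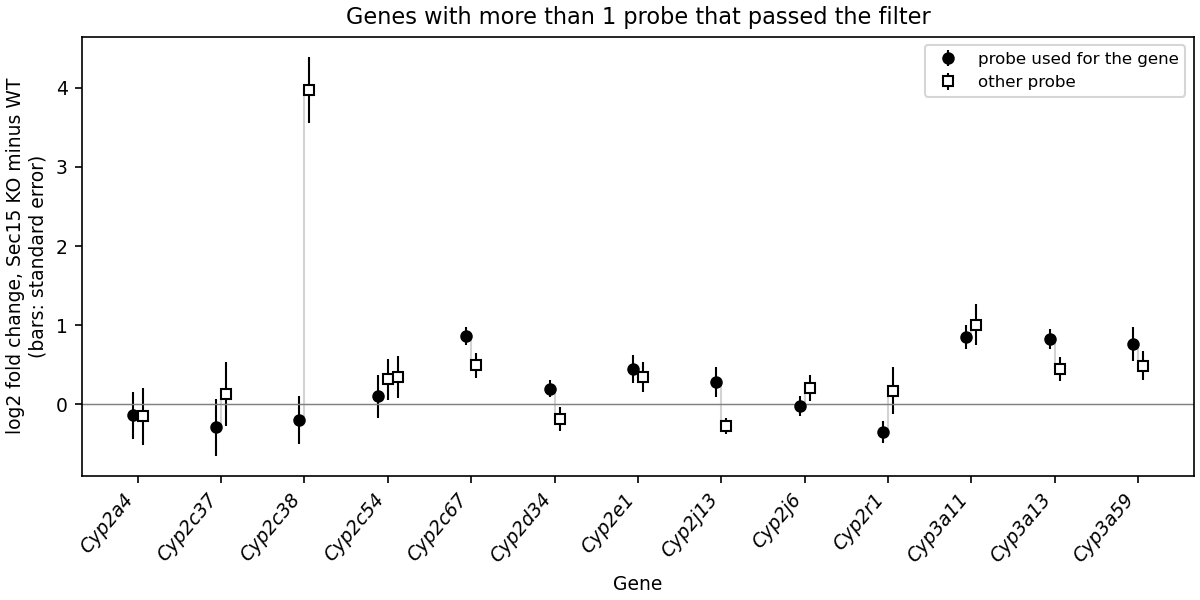
Log2 fold change with standard error (Sec15 KO minus WT, vertical axis) of each probe of the 13 genes (horizontal axis) with more than 1 passing probe. Filled circles are the probe used for the gene and open squares its other probes. The second probe of Cyp2c38 lies at 3.97 against -0.20 for the first, and the probes of 10 genes lie within 0.5 of each other.

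Among 10 tested Cyp2d genes, relatives of the human debrisoquine hydroxylase, 1 was called higher and 3 lower, with a median log2 fold change of -0.05. The shares over all genes were 17.6% higher and 12.2% lower. Both pseudogene transcripts fell. Cyp2d13 read -0.36, -0.49 and -0.37 in KO and -0.06, 0.34 and 0.35 in WT, a fall by 0.62 (SE 0.14, 1.53-fold lower, adjusted p = 0.0257). Cyp2d37-ps read 3.15, 3.16 and 3.23 in KO and 3.53, 3.54 and 3.55 in WT, a fall by 0.36 (SE 0.08, 1.28-fold lower, adjusted p = 0.0272). Cyp2d40 read 2.62, 2.40 and 2.57 in KO and 3.00, 3.10 and 3.03 in WT, a fall by 0.51 (SE 0.10, 1.43-fold lower, adjusted p = 0.0178) that kept its call with slide as a blocking term (-0.64, adjusted p = 0.0351). Among the tested genes these 3 follow each other along chromosome 15, and in each the KO arrays stood together below the WT arrays. Untested Cyp2d pseudogenes of chromosome 15 were left out of this order. Cyp2d26, the next tested gene, read 7.09, 7.02 and 7.10 in KO and 6.74, 6.74 and 6.76 in WT. It rose by 0.33 (SE 0.08, 1.26-fold, adjusted p = 0.0347), but only by 0.03 after cyclic loess (adjusted p = 0.768).

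Small differences without a call made up the rest of the Cyp2d genes. Cyp2d10 did not overlap between groups (6.62, 6.63 and 6.73 in KO, 6.33, 6.38 and 6.40 in WT) and differed by 0.29 (adjusted p = 0.0532), and Cyp2d11 read 6.57, 6.62 and 6.65 in KO and 6.75, 6.71 and 6.77 in WT (difference -0.13, adjusted p = 0.264). Cyp2d9, the male-biased testosterone hydroxylase, read 3.00, 2.99 and 3.09 in KO and 3.34, 2.95 and 3.19 in WT (difference -0.14, adjusted p = 0.418). Cyp2d12, Cyp2d22 and Cyp2d34 differed by 0.10, 0.03 and 0.20 without a call. The signs of Cyp2d10, Cyp2d12, Cyp2d22 and Cyp2d34 flipped to negative under cyclic loess, quantile normalisation and normexp, and the median of the 10 was then between -0.30 and -0.21.

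Of the Cyp2j genes, epoxygenases of arachidonic acid, limma called 0 of 5 (0 also at an unadjusted p under 0.05), against 29.7% of all genes. Their log2 fold changes were between -0.02 (Cyp2j6) and 0.28 (Cyp2j13), with a median of 0.16 that turned to -0.12 with slide as a blocking term. Cyp2j8 read 3.65, 2.94 and 3.43 in KO and 3.32, 3.13 and 3.25 in WT (difference 0.11, adjusted p = 0.687), and Cyp2j9 read 1.00, 2.10 and 1.60 in KO and 1.78, 0.95 and 1.48 in WT (difference 0.16, adjusted p = 0.723). In Cyp2j5, Cyp2j6, Cyp2j8 and Cyp2j13, which are 4 of the 5, KO replicates 1 and 3 lay above the WT mean and KO replicate 2 below it, against 8.81% of all genes. Cyp2j11 was well above background on 0 KO arrays and 2 WT arrays and was not tested, with measured means of -3.85 in KO and -3.64 in WT and overlapping groups.

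The Cyp2a genes differed from each other. Cyp2a12, which hydroxylates bile acids in mice, read 8.20, 8.21 and 8.33 in KO and 7.66, 7.94 and 7.81 in WT and rose by 0.45 (SE 0.11, 1.36-fold, adjusted p = 0.0321), though by 0.15 after cyclic loess (adjusted p = 0.274). Cyp2a4, a female-biased testosterone hydroxylase, read 5.37, 4.35 and 5.06 in KO and 5.37, 4.74 and 5.09 in WT (difference -0.14, adjusted p = 0.736), and its second probe gave -0.15. Replicate 2 was lowest in both groups of Cyp2a4. Cyp2a22, female-biased as well, was well above background on 2 KO arrays and 0 WT arrays, with means of -3.06 in KO and -4.91 in WT. The KO mean was 1.96-fold above the lowest signals that count as well above background on the WT arrays. That mean includes KO replicate 2, which at -3.71 was not well above background, so 1.96-fold is not a firm lower bound. Cyp2a22 was not tested.

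Of the 9 subfamilies with 1 tested gene, only Cyp2t4 was called, in a comparison in which 29.7% of all genes were called. It read -1.45, -1.11 and -1.50 in KO and -0.77, -0.55 and -0.57 in WT, and fell by 0.72 (SE 0.14, 1.65-fold lower, adjusted p = 0.0178) with no overlap. Cyp2e1, which oxidises ethanol and paracetamol in the hepatocytes around the central vein, read 8.63, 8.00 and 8.50 in KO and 7.83, 8.00 and 7.95 in WT. Its difference of 0.45 (SE 0.18, adjusted p = 0.105) came down to 0.08 with slide as a blocking term, KO replicate 2 being level with WT replicate 2. Cyp2f2, which activates naphthalene and marks the periportal side, read 7.90, 7.74 and 7.84 in KO and 7.79, 8.04 and 7.90 in WT (difference -0.08, adjusted p = 0.565). Cyp2r1, a vitamin D hydroxylase, read 2.07, 1.63 and 1.92 in KO and 2.29, 2.17 and 2.22 in WT. It was below WT on every KO array, by 0.35 on average (difference -0.35, adjusted p = 0.0978), and the call appeared with slide as a blocking term (-0.59, adjusted p = 0.0483), while its second probe differed by 0.18.

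The olfactory Cyp2g1, which is female-biased in mouse liver, differed by 0.39 (adjusted p = 0.204), and Cyp2s1, expressed mainly outside the liver, by 0.18 (adjusted p = 0.481). Cyp2u1, a fatty acid hydroxylase on the male-biased list, differed by -0.32 (adjusted p = 0.212), and Cyp2w1, a fetal and tumour P450 in humans, by -0.73 (adjusted p = 0.148), with KO replicate 2 at -1.96, beside WT values between -2.01 and -1.90. Cyp2ab1 was well above background on 0 KO arrays and 3 WT arrays, with measured means of -4.07 in KO and -3.70 in WT. It passed the filter only through the WT arrays, and its difference was close to 0 with normexp, so no fold or test is given. Cyp2g1, Cyp2s1, Cyp2u1 and Cyp2w1 showed no change past the test.

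Lists of P450 genes by known regulation cut across the subfamilies, in a comparison in which 17.6% of all genes were called higher and 12.2% lower. Of 5 tested genes on a female-biased list, 3 were called higher (Cyp3a16, Cyp3a41b and Cyp3a44), all of them Cyp3a genes, and the median was 0.85. Cyp2a4 and Cyp2g1 on the same list were not called, at -0.14 and 0.39. Both genes of the male-biased list, Cyp2d9 and Cyp2u1, were negative without a call, with 0 also at an unadjusted p under 0.05 by limma. Of 8 tested targets of CAR and PXR, 2 were called higher (Cyp3a11 and Cyp3a13) and 2 lower (Cyp2c55 and Cyp2c65), with a median of -0.01, beside 0.07 for all genes. Among the Cyp2b genes, also targets of CAR, Cyp2b10 differed by 3.79 (adjusted p = 0.00353), more than any Cyp2 or Cyp3 gene given here by its brightest probe.

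The partners of these enzymes were read from lists of fixed genes. Of 8 electron donors and haem genes, 3 were called higher and 0 lower by limma (4 higher and 0 lower at an unadjusted p under 0.05), with a median of 0.21. This count is near the 36.68% called higher in the brightest decile of genes, against 17.6% of all genes. Por, the reductase that all microsomal P450 enzymes share, had a log2 signal of 6.35, 6.13 and 6.21 in KO and 5.56, 5.36 and 5.48 in WT. Its groups were apart, and it rose by 0.76 (SE 0.11, 1.70-fold, adjusted p = 0.00962), with 0.66 when the slide was a block (adjusted p = 0.0464). Cyb5a, the cytochrome b5 of the endoplasmic reticulum, rose by 0.38 (adjusted p = 0.032), and Hmox1, which breaks down haem, by 0.56 (adjusted p = 0.034). Pgrmc1, a haem-binding partner of P450 enzymes, was 0.32 higher without a call (adjusted p = 0.0661).

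Of 13 tested genes for receptors that sense foreign compounds and lipids and for factors that work beside them (Arnt, Nfe2l2, Keap1 and Nr0b2), 7 were called higher and 0 lower by limma (10 and 0 at an unadjusted p under 0.05), with a median of 0.35. Of all genes, 17.6% were called higher and 12.2% lower. All KO values lay above all WT values for 30.7% of all genes and below them for 20.1%. Keap1, the inhibitor of Nrf2, rose by 0.73 (adjusted p = 0.0096) and Arnt, the partner of the dioxin receptor, by 0.71 (adjusted p = 0.0142). The dioxin receptor Ahr rose by 1.01 (adjusted p = 0.0206) and the bile acid receptor Nr1h4 by 0.45 (adjusted p = 0.0247). PXR (Nr1i2) and CAR (Nr1i3), named after their values were seen, were each 0.29 higher without a call (adjusted p = 0.0546 and 0.0676), and their KO values lay above their WT values. Nr0b2, also named after its values were seen, was 0.31 lower without a call (adjusted p = 0.169). Its KO values lay below its WT values, and the difference was -0.62 with slide as a blocking term. Of 12 liver-enriched transcription factors, 3 were called higher and 0 lower by limma (4 and 3 at an unadjusted p under 0.05), with a median of -0.09. Cebpb rose by 0.69 (adjusted p = 0.00898) and Hnf4a by 0.62 (adjusted p = 0.0189). No relation between these factors and the P450 genes or their promoter windows was tested. Without a call, Foxa1, Cebpa and Foxa2, named after their values were seen, differed by -0.80, -0.37 and -0.30 (adjusted p = 0.0705, 0.0814 and 0.0614), each with all KO values below all WT values.

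Of 10 regulators of growth hormone signalling and sex bias, 3 were called higher and 0 lower by limma (6 and 1 at an unadjusted p under 0.05). The shares of all genes were 17.6% called higher and 12.2% lower. Cux2, a female-biased repressor of male genes in mouse liver, was well above background on 3 KO arrays and 0 WT arrays, with measured means of -2.05 in KO and -6.09 in WT. It is 1 of the 3 counted, but it passed the filter only through the KO arrays and its WT level is not measured, so its test is not given. Socs2, a feedback inhibitor of growth hormone signalling, rose by 0.80 (adjusted p = 0.0122) and the corepressor Trim24 by 1.08 (adjusted p = 0.0309). Bcl6, a male-biased repressor of female genes, was 0.83 higher without a call (adjusted p = 0.0567). The rest of the list, named after its values were seen, had no call. Of these genes Ghr, Stat5a and Igf1 were 0.32, 0.41 and 0.13 higher. Jak2, Stat5b and Cish differed by -0.02, -0.62 and -0.83, with overlapping groups. No relation between these genes and the P450 genes was tested.

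Markers of zones and of other cells were read in the same comparison, in which 17.6% of all genes and 36.68% of the brightest decile were called higher. Of 10 pericentral genes 1 was called higher and 0 lower by limma (4 and 1 at an unadjusted p under 0.05, median 0.40), and of 10 periportal genes 3 and 0 (5 and 0 at an unadjusted p under 0.05, median 0.41). Of 9 hepatocyte markers 3 were called higher, with a median of 0.43 and KO replicate 2 the lowest KO array for 9 of 9. KO replicate 2 was also lowest for 9 of 10 pericentral, 9 of 10 periportal, 7 of 7 Kupffer cell and 5 of 6 endothelial markers. It was lowest for 1 of 5 pancreas and 1 of 5 kidney markers, for 45.32% of all genes and for 60.39% of the brightest decile. The summed linear signal of the hepatocyte markers, relative to the array's 75th percentile, was between 2293 and 2687 in KO and between 2042 and 2264 in WT. The red cell markers were higher for 4 of 6 (median 2.05, sums from 127 to 189.3 in KO and from 29.4 to 41.6 in WT). Sums cover all markers on the array, tested or not, which are 7 for red cells and 6 for stellate cells. The Kupffer cell markers were higher for 4 of 7 (sums from 43.5 to 56.0 in KO and from 31.8 to 32.2 in WT), endothelial markers for 3 of 6 (sums from 25.9 to 34.9 in KO and from 21.0 to 21.8 in WT) and stellate cell markers for 2 of 4 (sums from 26.3 to 30.1 in KO and from 18.3 to 24.9 in WT). Of 5 bile duct markers 1 was lower, of 5 pancreas markers 1 was higher and 3 lower, and of 5 kidney markers limma called 0 (2 lower at an unadjusted p under 0.05). The part of these markers in the P450 results was not tested.

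**Figure D5:**
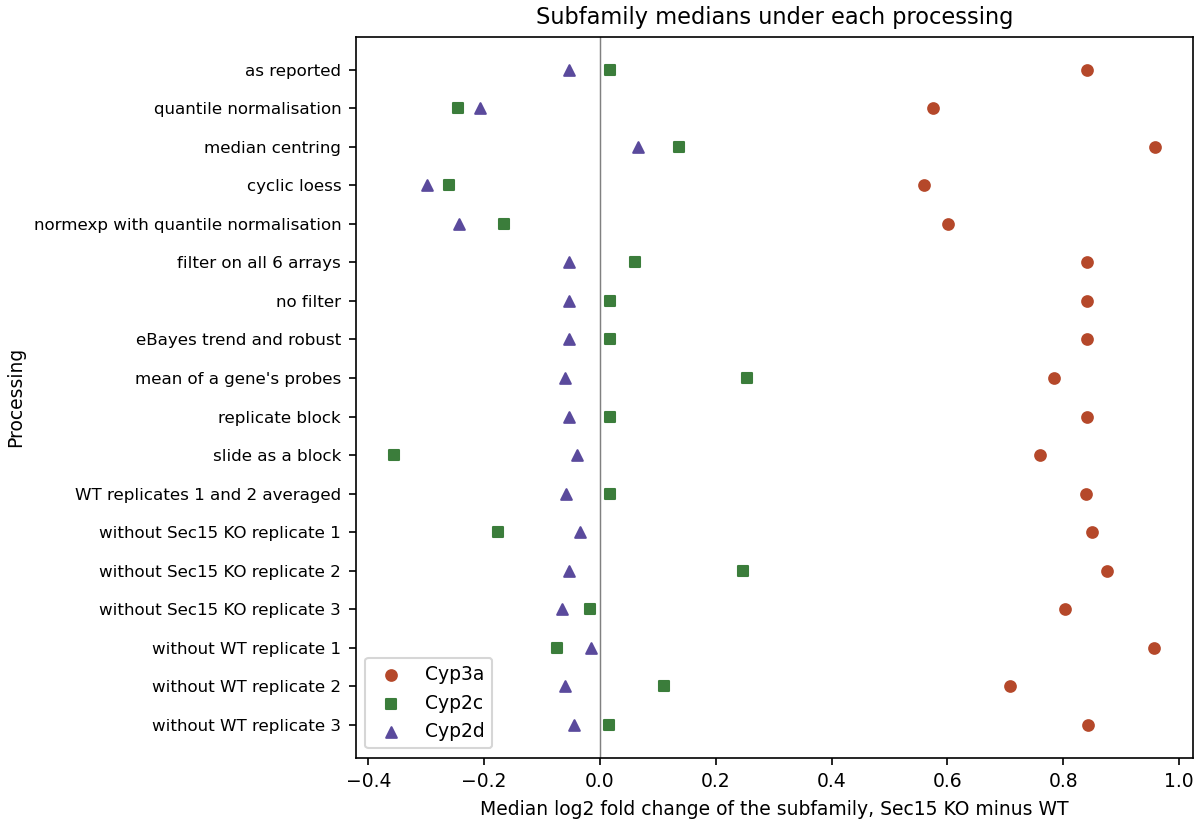
Median log2 fold change (Sec15 KO minus WT, horizontal axis) of the Cyp3a, Cyp2c and Cyp2d genes as reported and under each of 17 alternative settings (rows). The Cyp3a median stays between 0.56 and 0.96, while the Cyp2c median lies between -0.36 and 0.25 and the Cyp2d median between -0.30 and 0.07.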

How the data were processed

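Liver total RNA of 3 Sec15 KO and 3 WT samples was read on 1 array each. Per the file headers, the authors deposited spot intensity from Agilent Feature Extraction 11.0.1.1, background-subtracted and not normalised between arrays, with other deposited values flagging spots as outlier, saturated or well above background. Groups and replicate numbers came from the labels, and age (6 weeks) too. Outlier spots (178 to 236 per array) were left out, spots of 1 probe averaged, and each array's log2 processed signal set against its own 75th percentile, control probes apart. A probe passed when well above background on at least 3 arrays, which left 27031 probes. Accessions were matched to RefSeq symbols (27234 probes matched, 12195 did not), and the brightest passing probe stood for a gene, which gave 22814 genes. The table's genome coordinates served only for the order of the tested genes.

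KO and WT were compared with limma 3.58.1 (lmFit, eBayes) in R 4.3.3 (files were read with jsonlite 2.0.0 and data.table, version 1.17.8). The p-values were adjusted by Benjamini-Hochberg over all genes, or over all probes for single probes, at a threshold of 0.05. The fit was tested on simulated data. Promoter windows were searched and aligned with Biopython 1.88. The 17 alternatives were 4 other scalings or background corrections (normexp offset 50), 2 other filters, another variance model, a gene's probes averaged, a replicate block, a slide block, the average of WT replicates 1 and 2, and each array left out in turn. Bounds set the brighter group's mean against the lowest signal well above background on each array of the dimmer group, or the probe's own signal where higher.

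The members and lists were chosen with earlier results of these data known. Genes named were all called P450 genes, the brightest of each subfamily, those above background in 1 group only, those with probes of opposite sign, the regulation lists and up to 4 genes of each pathway list by p (3 for markers). A gene that this rule names among the liver-enriched transcription factors is not reported here. Same-numbered KO and WT samples had correlations of 0.11, 0.11 and 0.02 between their deviations from the group means, and the numbers were not taken as pairs.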

Additional observations from a re-analysis of the deposited data

How the results depend on the processing

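The 17 P450 calls rest on few arrays: 16 held with WT replicates 1 and 2 averaged, 13 without WT replicate 1, 17 without KO replicate 2, 9 after cyclic loess, 3 with the slide as a block and 0 without WT replicate 3, and no called gene changed sign in a setting that gave it a value. The number called higher (11) was 6 with quantile normalisation, 7 with normexp, 4 with cyclic loess and 1 with the slide as a block, and between 0 and 15 with 1 array left out. The number called lower (6) was 2 with median centring, 3 without a filter and 3 with the slide as a block, and between 0 and 9 with 1 array left out. Over all genes, 4005 higher became 2465 with cyclic loess, 2640 without a filter and 1184 with the slide as a block (332 to 5745 with 1 array left out), and 2777 lower became 1068 with the slide as a block (268 to 5047 with 1 array left out). The P450 median of 0.11 became -0.089 with quantile normalisation and -0.16 with cyclic loess. The Cyp2d median of -0.05 was -0.21 with quantile normalisation, 0.065 with median centring, -0.30 with cyclic loess and -0.24 with normexp, and the Cyp2j median was -0.12 with the slide as a block. With the replicate block, 9 P450 genes were higher and 3 lower, and 12 of the 17 calls held. Array weights could not be fitted and are left out.

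Signs reversed for P450 genes without a call. With cyclic loess they turned for Cyp2c29 (-0.001), Cyp2c39 (-0.26), Cyp2c54 (-0.19), Cyp2d10 (-0.002), Cyp2d12 (-0.17), Cyp2d22 (-0.20), Cyp2d34 (-0.084), Cyp2j8 (-0.16) and Cyp2j9 (-0.032). With quantile normalisation this held for Cyp2c39 (-0.25), Cyp2c54 (-0.15), Cyp2d10 (-0.01), Cyp2d12 (-0.10), Cyp2d22 (-0.089), Cyp2d34 (-0.12) and Cyp2j8 (-0.083). With normexp it held for Cyp2ab1 (0.004), Cyp2c39 (-0.16), Cyp2c54 (-0.15), Cyp2d10 (-0.13), Cyp2d12 (-0.18), Cyp2d22 (-0.016), Cyp2d34 (-0.15) and Cyp2j8 (-0.13). With median centring Cyp2f2 was 0.036 and Cyp2j6 0.10. With the slide as a block the signs turned for Cyp2c29 (-0.22), Cyp2c39 (-0.44), Cyp2c54 (-0.44), Cyp2c66 (0.11), Cyp2j13 (-0.12), Cyp2j5 (-0.079) and Cyp2j8 (-0.29). With the mean of a gene's probes Cyp2c38 was 1.89 and was called, and Cyp2j6 was 0.10. With 1 array left out, values ran from -0.36 to 0.15 for Cyp2a4, from -0.55 to 0.072 for Cyp2c37, from -0.44 to 0.14 for Cyp2c38, from -0.18 to 0.25 for Cyp2c39, from -0.38 to 0.18 for Cyp2c50, from -0.12 to 0.37 for Cyp2c54, from -0.10 to 0.049 for Cyp2j6, from -0.048 to 0.31 for Cyp2j8 and from -0.10 to 0.45 for Cyp2j9. The cause was not tested. With dim probes such as Cyp2c65 and Cyp2ab1, signal near background limits what can be seen.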
